A study of Mus musculus with 10 samples.

Results

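MM-401, a small molecule that blocks the interaction between the histone methyltransferase MLL1 and its partner WDR5, was compared with DMSO, the solvent, across all genes measured by RNA sequencing. The comparison used the 2 libraries whose label gives MM401 as the agent and the 2 labelled DMSO, which were 4 of the 10 libraries of the series. The other 6 libraries came from cells given EPZ5676, MI-2-2 or iBET, which are other small-molecule inhibitors. Every library was made from MAF9 cells, C57BL/6 mouse bone marrow cells that had been transduced with MLL-AF9 and were grown with fetal bovine serum and interleukin-3. MM-401 was present for 4 days at its IC50 dose, and the mock treatment was 0.01% DMSO. The labels do not say whether the cultures came from 1 transduced marrow or from several, although the study's methods describe the RNA samples as biological duplicates. P-values measure the spread between these libraries.

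MLL1 acts in a complex with WDR5, RBBP5, ASH2L and DPY30 that places methyl groups on lysine 4 of histone H3, a mark of active promoters and enhancers. WDR5 holds the catalytic end of MLL1 in this complex. The fusion protein MLL-AF9 lacks that end, keeps the DNA-binding end, and holds myeloid progenitors in an immature, dividing state with high HOXA and MEIS1 expression. When such progenitors mature, neutrophil precursors first make primary granule proteins such as myeloperoxidase and later the proteins of specific and gelatinase granules, whereas monocytes and macrophages acquire lysozyme, scavenger receptors and complement components.

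The 4 libraries held between 20394762 and 23717378 counted reads. Levels are given as TMM-scaled CPM, the reads of a gene relative to the reads of its library, which allows a gene to be compared between libraries but not 1 gene with another. Of the 24015 genes listed, 12971 passed a filter on low counts and were tested. The MM-401 libraries differed from each other by more than 2-fold at 135 genes (1.04%), and the DMSO libraries at 1902 genes (14.7%), all on the log2(CPM + 0.5) scale. DMSO replicate 2 (DMSO 2) also differed from the other 9 libraries in sex-linked genes. It held 97 reads of Xist, the RNA of the inactive X chromosome, whereas the others held from 21802 to 72357. Summed over Uty, Kdm5d, Ddx3y and Eif2s3y, which lie on the Y chromosome, it had 3630 reads, and the others from 0 to 2. The labels give C57BL/6 for every library and say nothing of the donors' sex. A difference between MM-401 and DMSO 2 cannot be told apart from whatever else sets DMSO 2 apart from the other libraries. Results below are therefore given against both DMSO libraries, and against DMSO replicate 1 (DMSO 1) or DMSO 2 alone where these differed most. No sample label was changed.

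No gene differed between MM-401 and DMSO in edgeR's quasi-likelihood test at an adjusted p of 0.05 (0 of 12971, 0%), and the smallest adjusted p was 0.135. The unadjusted p lay below 0.05 for 1450 genes (11.2%), of which 725 were higher and 725 lower with MM-401. DESeq2 called 286 of the 12216 genes for which it gave an adjusted p (2.34%), 155 of them higher (1.27%) and 131 lower (1.07%). Of these 286 genes, 277 lay beyond both DMSO libraries. The call and the position rest on the same MM-401 and DMSO libraries, so this overlap is not separate support. With 2 libraries against 2, an exact permutation test of 1 gene cannot give a p below 0.333. The groups were therefore also described by position, that is, by whether both MM-401 libraries lay outside both DMSO libraries. Both MM-401 libraries were above both DMSO libraries for 2531 genes (19.5%) and below both for 2308 (17.8%). The nearest MM-401 and DMSO libraries were at least 1.5-fold apart for 166 of the genes above (1.28%) and 141 of the genes below (1.09%). These 307 genes are called separated here. For 4659 genes (35.9%) MM-401 lay between the DMSO libraries in both replicates.

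The distance from MM-401 depended on which DMSO library it was measured from. The mean of the MM-401 libraries was more than 2-fold from at least 1 DMSO library for 1764 genes. For 146 of these (8.28%) it was past 2-fold against both in the same direction, 82 higher (0.632% of genes tested) and 64 lower (0.493%). For 565 genes (32.0%) it was past 2-fold against DMSO 1 alone, and 435 of these were lower with MM-401 (3.35% of genes tested) while 130 were higher (1%). For 966 genes (54.8%) it was past 2-fold against DMSO 2 alone, with 602 higher (4.64%) and 364 lower (2.81%). A further 87 genes (4.93%) were past 2-fold in opposite directions, 68 of them below DMSO 1 and above DMSO 2 (0.524%) and 19 the reverse (0.146%). The remaining 11207 genes (86.4%) were past 2-fold against neither.

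**Figure D1:**
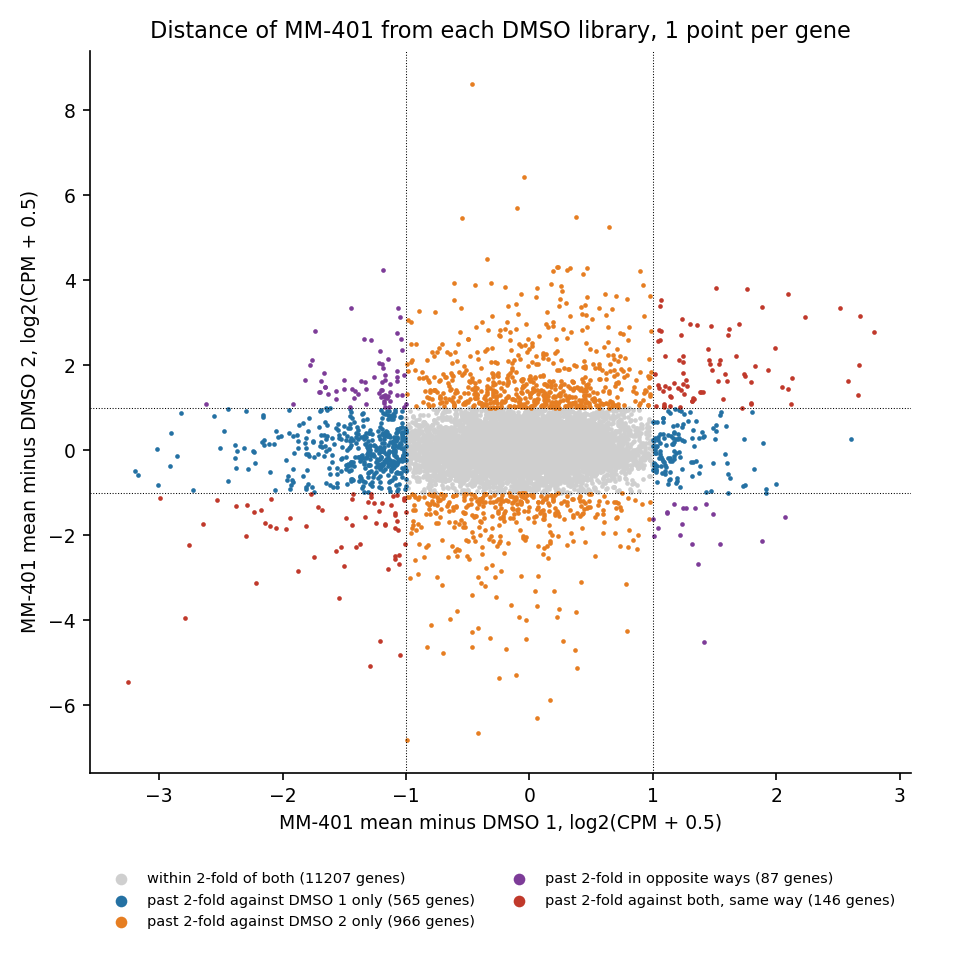
Each point is 1 of the 12971 genes tested, placed by the mean of the MM-401 libraries minus DMSO 1 (x axis) and minus DMSO 2 (y axis), both in log2(CPM + 0.5), with dotted lines at 2-fold and colours for the classes in the legend. The 146 red points in 2 corners are past 2-fold against both DMSO libraries, and the 966 orange points, which spread the furthest, are past 2-fold against DMSO 2 alone.

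Genes of monocytes and macrophages were the first group that lay above both DMSO libraries. Of 29 such genes tested, both MM-401 libraries were above both DMSO libraries for 20 and below both for 1, against 19.5% and 17.8% of all genes. Their median log2 difference in the edgeR fit was 0.95, beside -0.01 over all genes tested, and it was 1.34 without DMSO 2 and 1.26 without DMSO 1. The unadjusted p was below 0.05 for 15 of the 29, all higher (5.59% of all genes were so). DESeq2 called 7, all higher, beside 1.27% of the genes to which it gave an adjusted p. Against DMSO 1 alone, 27 of the 29 were higher in both MM-401 libraries (44.8% of all genes), and against DMSO 2 alone 21 (42%). The mean of the list on the log2(CPM + 0.5) scale was 2.46 and 2.61 in DMSO 1 and DMSO 2 and 3.42 and 3.50 in MM-401 1 and MM-401 2. It was higher in replicate 2 than in replicate 1 in each of the 5 conditions, whose part in the result was not tested.

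Mrc1, the mannose receptor of macrophages, had the widest separation among genes above DMSO whose higher group averaged 5 CPM or more. It was at 1.67 and 1.05 CPM in the DMSO libraries and at 12.5 and 14.4 CPM in the MM-401 libraries. The nearest libraries were 5.98-fold apart, and the log2 difference was 3.28 ± 0.64 (SE, adjusted p = 0.259 in edgeR, 2.39e-06 in DESeq2). Msr1, a scavenger receptor, was at 0.857 and 1.49 CPM in DMSO and 5.07 and 5.13 CPM with MM-401. For both receptors the MM-401 libraries lay close together and well above DMSO. Mmp12, the macrophage elastase, was listed at 0.428 and 0.431 CPM in DMSO and at 2.92 and 11.6 CPM with MM-401. Here the MM-401 libraries themselves were apart, and the lower of them was 3.67-fold above DMSO. Gpnmb, a transmembrane glycoprotein of macrophages, stood at 41.6 and 9.73 CPM in DMSO against 146 and 139 CPM. Its fold against DMSO 1 was 3.40 and against DMSO 2 was 14.0, on the log2(CPM + 0.5) scale, so that the size of the difference was set by the control library used. Lyz2, the lysozyme of myeloid cells, was counted at 282 and 261 CPM in DMSO and at 619 and 632 CPM with MM-401, a log2 difference of 1.20 ± 0.25 (SE). Lyz2 and Lyz1 are close in sequence, and reads that both match are as the authors counted them.

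Genes with few reads made up part of this group. The complement genes C1qa, C1qb and C1qc, which macrophages secrete, all lay above DMSO. C1qb had 0.234 and 0 CPM in DMSO and 1.52 and 2.23 CPM with MM-401. C1qa had 2 reads over the DMSO libraries and 22 over the MM-401 libraries, a ratio of 10.8 (95% interval 2.65 to 94.7 from an exact binomial test, which covers counting error only). Marco, a scavenger receptor, had 3 reads in DMSO and 47 with MM-401 (ratio 15.4, interval 4.95 to 77.2). Cd36, a fatty acid receptor, had no read in either DMSO library and 7 and 39 reads with MM-401, which is at least 15.0-fold higher against 3 reads over the group. Placing Cd36 at that bound left the list's median at 0.95. None of these C1q genes, Marco or Cd36 passed the edgeR test. The transcription factor Maf was at 0.311 and 0.336 CPM in DMSO and 1.90 and 1.43 CPM with MM-401. Ly86, a partner of a lipopolysaccharide receptor, stood at 4.13 and 2.78 CPM against 8.88 and 9.16 CPM. Outside the lists, Ankrd22, Clec4n and Plekhg1 were also among the 10 genes with the widest separation above DMSO. Clec4n, a lectin receptor of myeloid cells, was at 2.69 CPM in each DMSO library and 11.6 and 8.91 CPM with MM-401. Ankrd22 was at 1.44 and 0.144 CPM against 5.88 and 10.2 CPM, and Plekhg1 at 3.70 and 3.26 CPM against 11.2 and 18.4 CPM. Of the 29 monocyte and macrophage genes tested, only 12 were separated above DMSO (1.28% of all genes). Some defining genes of the list were not. Csf1r, the receptor for macrophage colony-stimulating factor, was at 8.72 and 19.0 CPM in DMSO and at 19.0 and 17.6 CPM with MM-401. Fcgr3, an immunoglobulin receptor, was the member below both, at 199 and 228 CPM against 180 and 181 CPM. In bulk RNA, more cells of a type and more RNA per cell cannot be told apart.

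Genes of the specific and gelatinase granules of neutrophils lay above DMSO even more uniformly. Of 27 tested, 23 were above both DMSO libraries and none was below both (19.5% and 17.8% of all genes). The median log2 difference was 1.42, and this value moved with the control. It was 0.79 without DMSO 2 and 3.01 without DMSO 1. The list mean was 5.18 in DMSO 1, 3.82 in DMSO 2, 5.82 in MM-401 1 and 6.14 in MM-401 2, in log2(CPM + 0.5). Against DMSO 1 alone and against DMSO 2 alone, 25 of the 27 were higher in both MM-401 libraries (44.8% and 42% of all genes). The unadjusted edgeR p was below 0.05 for 13 genes, all higher (5.59% of all genes were so). DESeq2 called 6, all higher, beside 1.27% of the genes to which it gave an adjusted p. Past 2-fold, 6 of the genes were higher than both DMSO libraries (0.632% of all genes) and 16 were higher than DMSO 2 alone (4.64%).

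Ltf, which encodes lactoferrin of the specific granules, was at 25.2 and 8.92 CPM in DMSO and 59.2 and 84.4 CPM with MM-401, a log2 difference of 2.07 ± 0.48 (SE, adjusted p = 0.292 in edgeR, 0.000649 in DESeq2). Camp, the cathelicidin, stood at 52.7 and 39.3 CPM against 94.8 and 128 CPM. Cybb, the catalytic subunit of the phagocyte oxidase, was at 48.8 and 30.7 CPM in DMSO and 121 and 151 CPM with MM-401 (log2 difference 1.77 ± 0.28 SE, adjusted p = 0.223 in edgeR and 5.6e-07 in DESeq2). All 3 genes kept a distance of at least 1.5-fold from the nearer DMSO library. Chil3, a chitinase-like protein, was counted at 29.1 and 15.3 CPM in DMSO and at 80.1 and 240 CPM with MM-401, and its relative Chil1 at 5.22 and 1.15 CPM against 10.2 and 12.6 CPM. Mmp9, the gelatinase, was at 7.98 and 4.17 CPM against 14.8 and 18.0 CPM. Fpr2, a formyl peptide receptor, was at 0.896 and 0.0959 CPM against 3.68 and 3.91 CPM, and the neutrophil antigen Cd177 at 145 and 40.3 CPM against 253 and 325 CPM. In each of these the higher DMSO library was DMSO 1. S100a8 and S100a9, the calprotectin subunits, showed how far the control mattered. S100a8 was at 1465 CPM in DMSO 1, 250 CPM in DMSO 2, and 1887 and 2704 CPM with MM-401. Hp, haptoglobin, went the other way between controls, with 142 CPM in DMSO 1, 500 CPM in DMSO 2, and 184 and 216 CPM with MM-401.

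The promoters of 5 of these separated genes are shown because myeloid genes of both lists are known targets of the transcription factors PU.1 and C/EBP. Each runs 5′ to 3′ from 250 bases before to 50 bases after the RefSeq start on build GRCm38.p6, and capitals mark every match to TTNCNNAA, a loose C/EBP motif, or GAGGAAGT, a PU.1 motif, on either strand. The counts themselves were made on mm9, so the positions are those of RefSeq. Ltf lies at chr9:111019042-111019341 on the plus strand, Chil3 at chr3:106167515-106167814 on the minus strand, Cybb at chrX:9469275-9469574 on the minus strand, Mrc1 at chr2:14229164-14229463 on the plus strand and Lyz2 at chr10:117282223-117282522 on the minus strand.

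Ltf: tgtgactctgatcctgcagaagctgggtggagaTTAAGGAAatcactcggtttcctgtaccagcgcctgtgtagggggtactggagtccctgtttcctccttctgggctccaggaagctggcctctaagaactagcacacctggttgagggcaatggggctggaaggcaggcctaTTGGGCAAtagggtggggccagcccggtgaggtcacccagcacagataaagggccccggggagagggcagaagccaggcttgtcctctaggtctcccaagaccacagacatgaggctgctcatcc

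Chil3: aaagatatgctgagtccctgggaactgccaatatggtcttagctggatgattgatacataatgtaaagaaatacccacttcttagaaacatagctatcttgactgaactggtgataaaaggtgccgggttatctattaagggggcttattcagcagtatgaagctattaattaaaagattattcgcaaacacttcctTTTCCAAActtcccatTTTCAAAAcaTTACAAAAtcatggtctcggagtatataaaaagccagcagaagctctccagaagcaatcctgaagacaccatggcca

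Cybb: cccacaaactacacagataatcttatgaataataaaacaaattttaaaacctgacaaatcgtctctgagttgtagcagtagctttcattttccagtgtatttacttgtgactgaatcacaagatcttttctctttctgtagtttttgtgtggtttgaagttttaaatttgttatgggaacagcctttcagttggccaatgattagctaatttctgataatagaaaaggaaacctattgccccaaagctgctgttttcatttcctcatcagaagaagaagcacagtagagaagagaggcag

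Mrc1: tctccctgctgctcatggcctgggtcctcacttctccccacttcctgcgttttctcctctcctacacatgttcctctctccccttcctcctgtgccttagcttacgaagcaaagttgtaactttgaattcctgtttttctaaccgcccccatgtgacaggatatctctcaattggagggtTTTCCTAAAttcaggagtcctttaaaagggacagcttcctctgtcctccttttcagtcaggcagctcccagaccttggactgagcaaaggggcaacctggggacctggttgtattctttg

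Lyz2: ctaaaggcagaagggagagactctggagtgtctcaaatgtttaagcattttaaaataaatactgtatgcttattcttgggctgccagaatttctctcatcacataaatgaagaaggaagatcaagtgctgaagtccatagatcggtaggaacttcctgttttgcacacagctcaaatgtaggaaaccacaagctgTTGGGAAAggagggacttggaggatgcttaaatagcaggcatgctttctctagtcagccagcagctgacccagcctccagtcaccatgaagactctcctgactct

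TTNCNNAA was present in the windows of Ltf, Chil3, Mrc1 and Lyz2 and absent from that of Cybb, and GAGGAAGT was in none of the 5. Of the 27 late granule genes, 24 had a promoter in the table, and 17 of these (70.8%) held TTNCNNAA and 4 (16.7%) GAGGAAGT. Over all 27025 genes of the promoter table the shares were 44.1% and 3.69%. Over the 10276 tested genes with a promoter they were 36.2% and 3.93%, but only 79.2% of the tested genes had one, so that this background is incomplete. Of the 166 genes separated above DMSO, 134 had a promoter, of which 69 (51.5%) held TTNCNNAA and 9 (6.72%) GAGGAAGT. For the 141 genes separated below DMSO and for the 29 macrophage genes the check was void, since only 67.4% and 72.4% had a promoter in the table. A match describes letters in a window and is not a site of binding.

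Primary granule and myeloblast genes, which mark an earlier stage, did not move together. Of 17 tested, 6 were above both DMSO libraries and 2 below (19.5% and 17.8% of all genes), with a median log2 difference of 0.13, which was 0.28 without DMSO 2 and -0.19 without DMSO 1. Mpo, myeloperoxidase, showed the widest disagreement between controls. It was at 386 CPM in DMSO 1, 4817 CPM in DMSO 2, and 1287 and 2050 CPM with MM-401. MM-401 was thus 4.2-fold above DMSO 1 and at 0.337 times DMSO 2. The protease gene Ctsg and Ms4a3, a membrane protein of granulocyte and monocyte progenitors, lay above both controls. Ctsg was at 2641 and 1226 CPM against 3079 and 3183 CPM, and Ms4a3 at 750 and 513 CPM against 1123 and 1342 CPM. Elane, neutrophil elastase, lay below both, at 4195 and 4009 CPM against 3674 and 3198 CPM. Cebpe, the transcription factor of late granulopoiesis and a gene that the study singled out, was at 107 and 108 CPM in DMSO and 132 and 153 CPM with MM-401, a log2 difference of 0.40 ± 0.24 (SE, edgeR adjusted p = 0.588).

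Chemokines, cytokines and their receptors were another group with more members above than below DMSO. Of 31 tested, 12 were above both and 2 below both, against 19.5% and 17.8% of all genes, with a median log2 difference of 0.25, which was 0.40 without DMSO 2 and 0.46 without DMSO 1. Ccl2, which draws monocytes, was at 0.156 and 0.767 CPM in DMSO and 3.34 and 3.53 CPM with MM-401. Il1rn, the antagonist of the interleukin-1 receptor, was at 14.1 and 6.33 CPM against 38.4 and 50.6 CPM, a log2 difference of 2.12 ± 0.36 (SE, adjusted p = 0.223 in edgeR, 3.67e-06 in DESeq2). Il18 was at 0.35 and 0.192 CPM against 1.01 and 0.882 CPM. All 3 were separated from DMSO in both MM-401 libraries, while the members below both, Ccr7 and Il10ra, were at 0.818 and 0.863 against 0.423 and 0.126 CPM and at 7.87 and 8.58 against 5.79 and 2.90 CPM. Interferon response genes depended on DMSO 2. Of 27 tested, 8 were above both DMSO libraries and 1 was below both (19.5% and 17.8% of all genes). Against DMSO 2 alone 22 were above (42% of all genes). Against DMSO 1 alone 11 were above and 11 below, near the 44.8% and 41.9% of all genes. Their median log2 difference was 0.23, and it was 0.01 without DMSO 2 and 0.80 without DMSO 1. Replicate 2 was lower than replicate 1 in the list mean in all 5 conditions, and the part of this in the result was not tested. Only Oas2, a sensor enzyme of double-stranded RNA, was separated, at 8.41 and 1.2 CPM against 16.0 and 20.3 CPM.

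**Figure D2:**
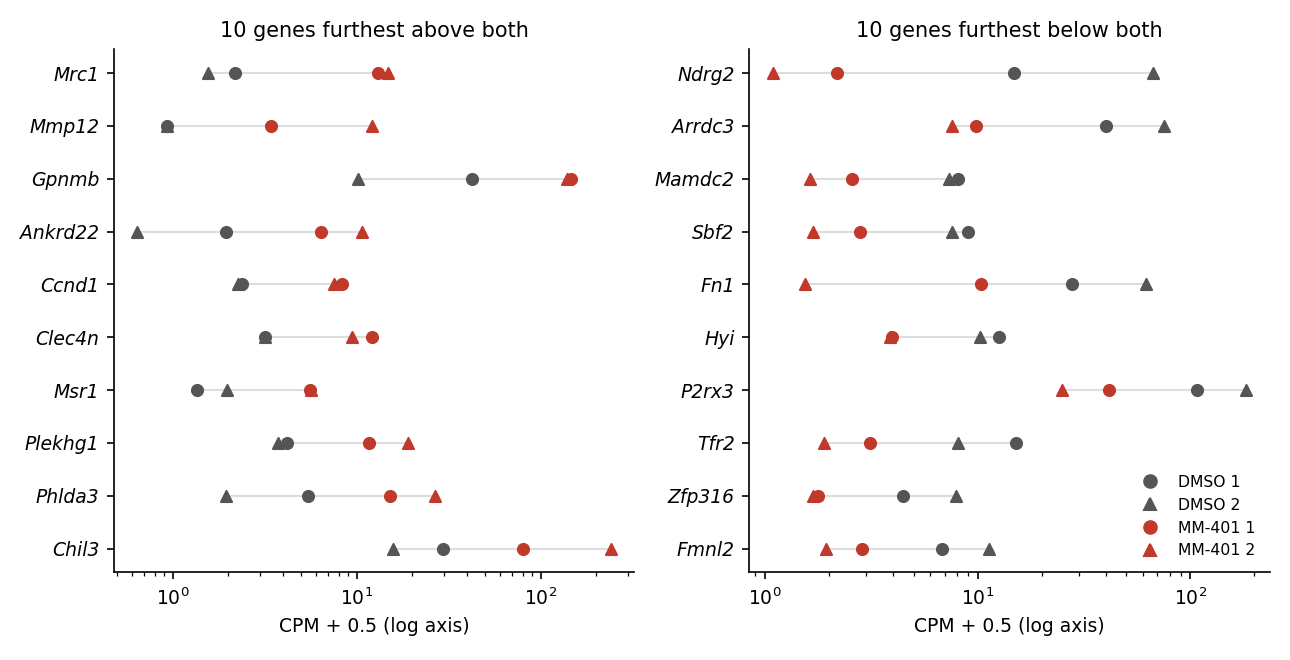
CPM + 0.5 (log axis) of the 10 genes with the widest separation above (left) and the 10 with the widest separation below both DMSO libraries (right), among genes whose higher group averaged 5 CPM or more, with grey for DMSO, red for MM-401, circles for replicate 1 and triangles for replicate 2. No red and grey points overlap within a gene, since the genes were chosen for that, and Gpnmb and Ndrg2 show how far apart the DMSO libraries could be.

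Among CDK inhibitors and targets of p53, the tumor suppressor that halts division after damage, a few targets were separated while the inhibitors were not. Of 24 tested, 8 were above both DMSO libraries and 4 below both (19.5% and 17.8% of all genes), with a median log2 difference of 0.23 (-0.06 without DMSO 2 and 0.57 without DMSO 1). Against DMSO 1 alone 10 were above and 12 below (44.8% and 41.9% of all genes). Against DMSO 2 alone 17 were above and 4 below (42% and 41.3%), so the direction of the list depended on the control. Phlda3, which restrains AKT, was at 4.95 and 1.44 CPM in DMSO and 14.7 and 26.1 CPM with MM-401, a log2 difference of 2.66 ± 0.54 (SE, adjusted p = 0.266 in edgeR, 0.000253 in DESeq2). Ccng1, cyclin G1, was at 196 and 172 CPM against 304 and 390 CPM, and Zmat3, an RNA-binding p53 target, at 18.3 and 14.6 CPM against 32.3 and 47.7 CPM. These 3 lay above both controls by at least 1.5-fold. Cdkn1a, the p21 inhibitor, lay between the controls, at 253 CPM in DMSO 1, 58.1 CPM in DMSO 2, and 192 and 169 CPM with MM-401. Other p53 targets lay below both controls. Gadd45a was at 33.7 and 59.0 CPM against 30.9 and 20.8 CPM, and Pmaip1, a pro-apoptotic gene, at 109 and 102 CPM against 83.1 and 63.2 CPM.

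Cell cycle genes shifted little. Of 30 tested, 8 were below both DMSO libraries and 1 above both (17.8% and 19.5% of all genes). The median log2 difference was -0.08. None was past 2-fold against either control, as were 6.15% of all genes against DMSO 1 and 9.24% against DMSO 2. Cenpf, a kinetochore protein, had the lowest log2 difference of the list, at 201 and 178 CPM in DMSO and 133 and 131 CPM with MM-401. Ccne1, cyclin E1, was the member above both, at 28.8 and 33.6 CPM against 41.7 and 43.8 CPM. Outside this list, the cyclin gene Ccnd1 was among the genes furthest above DMSO, at 1.87 and 1.77 CPM in DMSO and 7.78 and 7.02 CPM with MM-401. Its log2 difference was 2.02 ± 0.35 (SE, adjusted p = 0.223 in edgeR, 0.000296 in DESeq2).

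The genes furthest below both controls did not come from 1 pathway of the lists. Ndrg2, a growth-restraining member of the NDRG family, was at 14.2 and 66.5 CPM in DMSO and 1.69 and 0.588 CPM with MM-401. Its nearest libraries were 6.73-fold apart, and the log2 difference was -5.14 ± 1.00 (SE, adjusted p = 0.259 in edgeR, 9.63e-07 in DESeq2). Arrdc3, an arrestin-domain protein, was at 39.5 and 74.3 CPM against 9.34 and 7.06 CPM (log2 difference -2.79 ± 0.41 SE). In both genes DMSO 2 held more than DMSO 1, and MM-401 was well below either. P2rx3, an ATP-gated ion channel, was at 107 and 182 CPM against 41.0 and 24.3 CPM, and Tfr2, transferrin receptor 2, at 14.7 and 7.58 CPM against 2.62 and 1.39 CPM. Mamdc2, Sbf2, Hyi, Zfp316 and Fmnl2 completed the set of 10 with Fn1. Hyi had DMSO values of 12.1 and 9.78 CPM and MM-401 values of 3.47 and 3.36 CPM, so neither pair differed much within itself. Mamdc2 was at 7.55 and 6.86 CPM against 2.07 and 1.13 CPM and Sbf2 at 8.49 and 7.09 CPM against 2.28 and 1.18 CPM. Zfp316 and Fmnl2 were at 3.97 and 7.43 CPM and at 6.27 and 10.8 CPM in DMSO. With MM-401 they were at 1.27 and 1.18 CPM and at 2.37 and 1.43 CPM.

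Adhesion genes split in both directions. Of 32 tested, 10 were above both DMSO libraries and 7 below both (19.5% and 17.8% of all genes), with a median log2 difference of -0.07, which was 0.03 without DMSO 2. Fn1, fibronectin, was at 27.3 and 61.2 CPM in DMSO and 9.85 and 1.05 CPM with MM-401, and Itgb3, the integrin beta 3 chain, at 6.08 and 8.53 CPM against 2.75 and 2.81 CPM. Fn1 also varied between replicates of the other inhibitors, at 166 and 16.0 CPM with EPZ5676 and 62.8 and 8.29 CPM with MI-2-2, and its log2 difference of -3.02 had an SE of 1.39. For Itgb3 the MM-401 libraries lay close together. The leukocyte integrin chains lay above both. Itgam, which with Itgb2 forms the complement receptor of maturing myeloid cells, was at 481 and 279 CPM against 656 and 811 CPM, and Itgal was at 207 and 85.6 CPM against 269 and 299 CPM. Of 29 immediate early genes, 4 were above both and 3 below both (19.5% and 17.8% of all genes). Their median log2 difference was -0.01, but 0.49 without DMSO 1. Klf2, a quiescence factor of leukocytes, was the separated member, at 26.6 and 47.3 CPM against 14.9 and 10.4 CPM (log2 difference -1.54 ± 0.35 SE).

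Genes of the ATF4 response to amino acid shortage and genes of hypoxia and glycolysis had few members above DMSO. Of 25 ATF4 genes tested, 9 were below both DMSO libraries and none above both (17.8% and 19.5% of all genes). Their median log2 difference was -0.40, -0.65 without DMSO 2 and -0.26 without DMSO 1. Trib3, a pseudokinase, was at 59.4 and 37.0 CPM against 35.4 and 12.4 CPM, and Chac1, which breaks down glutathione, at 28.5 and 39.5 CPM against 20.9 and 12.2 CPM. Vldlr, a lipoprotein receptor, was the separated member, at 2.96 and 1.15 CPM against 0.380 and 0 CPM. Of 31 hypoxia and glycolysis genes, 8 were below both and 1 above both (17.8% and 19.5% of all genes). Their median log2 difference was -0.49, -0.83 without DMSO 2 and -0.14 without DMSO 1. Egln3, an oxygen-sensing hydroxylase, was at 330 and 162 CPM against 156 and 47.2 CPM, and Bnip3, a mitophagy gene, at 137 and 70.3 CPM against 66.1 and 15.1 CPM. Slc16a3, the lactate exporter, was at 591 and 607 CPM in DMSO, 563 CPM in MM-401 1 and 254 CPM in MM-401 2, so that 1 MM-401 library carried the difference. Replicate 2 was lower than replicate 1 in the mean of both lists in all 5 conditions. For hypoxia and glycolysis the means of replicates 1 and 2 were 7.48 and 6.63 in DMSO and 6.97 and 6.12 with MM-401, in log2(CPM + 0.5). The part of the replicate number in these lists was not tested. Gapdh, Eno1 and Pgam1, which have processed copies in the genome, were counted at 5.17 to 39.3 CPM in the 4 libraries and are uncertain.

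**Figure D3:**
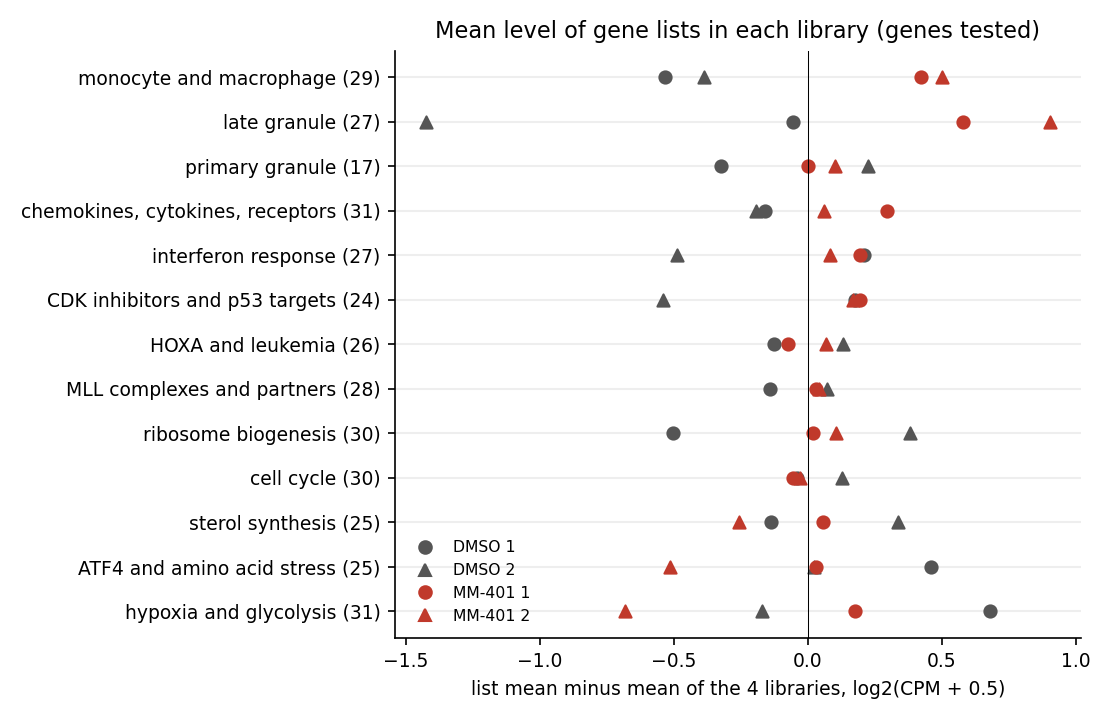
Mean level of 13 gene lists in each of the 4 libraries, in log2(CPM + 0.5), minus the mean of the 4 libraries, with the number of genes tested in brackets, grey for DMSO, red for MM-401, circles for replicate 1 and triangles for replicate 2. Both MM-401 libraries lie above both DMSO libraries for monocyte and macrophage genes, late granule genes, and chemokines, cytokines and receptors. They lie between the DMSO libraries for ribosome biogenesis, primary granule, interferon response, HOXA and leukemia, and MLL complex genes.

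Of the 5 genes with the smallest p, Arrdc3 was also among the 10 with the widest separation below DMSO, and the other 4 were not among the 10 in either direction. Prkar2b, a regulatory subunit of protein kinase A, was at 83.3 and 88.0 CPM in DMSO and 42.6 and 43.2 CPM with MM-401, a log2 difference of -1.0 ± 0.10 (SE, unadjusted p = 1.04e-05 and adjusted p = 0.135 in edgeR, adjusted p = 7.18e-12 in DESeq2). Fgd4, which activates CDC42, was at 116 and 107 CPM against 194 and 225 CPM (log2 difference 0.91 ± 0.13 SE). Gpr84, a fatty acid receptor of myeloid cells, was at 21.4 and 19.4 CPM against 40.5 and 56.2 CPM. Gm15421 was at 41.6 and 34 CPM against 15.9 and 14.2 CPM. In these 4 genes the groups lay at least 1.66-fold apart at their nearest libraries. A fit without a DMSO library has only the other as control, and that control then shows no spread of its own. Without DMSO 1 the control is DMSO 2, which stood apart in sex-linked genes. The log2 difference of Xist was 8.78 in that fit and -0.485 without DMSO 2. Genes called without DMSO 1 therefore cannot be told apart from differences of DMSO 2 itself and are not counted as effects of MM-401. With DMSO 1 left out, edgeR gave an adjusted p below 0.05 for 796 genes higher (5.96% of 13355) and 572 lower (4.28%), and with DMSO 2 left out for none (0% of 13242).

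No gene of the HOXA cluster or the wider MLL fusion program was separated from DMSO. Of 26 tested, 5 were above both DMSO libraries, a share like the 19.5% of all genes, and 2 below both (17.8% of all genes), with a median log2 difference of 0.04, 0.14 without DMSO 2 and -0.12 without DMSO 1. None of the 26 was past 2-fold against DMSO 1, as were 6.15% of all genes. Against DMSO 2, 9 of the 26 were past 2-fold, 5 higher and 4 lower with MM-401. This was a larger share than the 9.24% of all genes. Hoxa9 was at 445 and 380 CPM in DMSO and 376 and 397 CPM with MM-401, a log2 difference of -0.09 ± 0.12 (SE, edgeR adjusted p = 0.829). Meis1, its partner, was at 36.5 and 89.9 CPM against 34 and 43.2 CPM, so that MM-401 was 1.05-fold above DMSO 1 and at 0.430 times DMSO 2. For neither gene did the groups separate. Hoxa10 was at 306 and 126 CPM against 333 and 326 CPM, and Hoxa11 at 189 and 18.5 CPM against 226 and 224 CPM, both set apart from DMSO 2 and near DMSO 1. Hoxa7 was at 25.1 and 51.0 CPM against 31.1 and 35.3 CPM. Hoxa5 was at 50.5 and 36.0 CPM against 66.6 and 82.9 CPM. Myc was at 456 and 403 CPM against 361 and 294 CPM, below both controls, with a log2 difference of -0.39 ± 0.27 (SE, edgeR adjusted p = 0.648). Flt3, a growth factor receptor, was low, at 0.0389 and 1.39 CPM in DMSO and 0.169 and 0.336 CPM with MM-401. Meis2 did not pass the filter and had 9 and 36 reads in DMSO and 0 and 2 with MM-401. Egr2 was at 1.21 and 0.719 CPM against 1.48 and 0.840 CPM, and Zfp385a at 3.78 and 8.68 CPM against 5.75 and 6.68 CPM. Neither of these showed a separation.

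Transcripts of the MLL1 complex itself differed little. Kmt2a, which encodes MLL1, was at 282 and 269 CPM in DMSO and 269 and 288 CPM with MM-401, a log2 difference of 0.01 ± 0.16 (SE). Wdr5 was at 154 and 200 CPM against 185 and 202 CPM, a difference of 0.12 ± 0.16 (SE). MM-401 acts on the protein contact, so these levels do not test its action. The list of MLL and SET1 complexes, fusion partners and inhibitor targets held 28 genes. Of these, 10 were above both DMSO libraries and 2, Rbbp5 and Psip1, below both (19.5% and 17.8% of all genes). None of the 28 was past 2-fold against either control, beside 6.15% of all genes against DMSO 1 and 9.24% against DMSO 2. The study lists genes bound by MLL1 in its own ChIP-seq and by the fusion protein in ChIP-seq published earlier. The MLL1 part came from the study's own experiments on such cells, so the list is not independent of its account of them. By symbol 1347 of the listed genes were matched, and 975 were tested. Of these, 201 were above both DMSO libraries and 183 below both, 16 and 13 were separated, and the median log2 difference was -0.01, as over all genes. These counts were near the shares of all genes, which were 19.5%, 17.8%, 1.28% and 1.09%. Among the separated ones were Msr1, Maf, Ly86 and Gpr84 above and Arrdc3 and Prkar2b below.

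MYC-linked ribosome biogenesis genes showed the reverse of a separation. Of 30 tested, none was above both DMSO libraries and 1 was below both (19.5% and 17.8% of all genes). For 26 the MM-401 libraries lay between the DMSO libraries (35.9% of all genes). Against DMSO 1 alone 28 of the 30 were higher in both MM-401 libraries (44.8% of all genes). Against DMSO 2 alone 27 were lower (41.3% of all genes). The median log2 difference was 0.07, 0.54 without DMSO 2 and -0.26 without DMSO 1. Ncl, nucleolin, was at 1119 CPM in DMSO 1, 3224 CPM in DMSO 2, and 1677 and 1906 CPM with MM-401. Whether these genes were higher or lower with MM-401 was therefore decided by the control library. The list mean was higher in replicate 2 than in replicate 1 in all 5 conditions, and for the adhesion and ETS lists it was lower in all 5, which was not tested further.

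Single genes showed the same dependence in the extreme. Past 2-fold against DMSO 1 alone, the genes with at least 5 CPM that were furthest from it were Unc13a, Smtnl2, Nrbp2, Mgarp and Col25a1, all lower with MM-401. Unc13a, a synaptic vesicle protein, was at 28 CPM in DMSO 1, 3.83 CPM in DMSO 2, and 6.51 and 0.882 CPM with MM-401. Nrbp2 was at 18.3, 1.77, 2.71 and 1.18 CPM in the same order. Replicate 1 was above replicate 2 in all 5 conditions for each of these 5 genes, and each was lower with MM-401 than with DMSO within both replicate numbers. Unc13a, for example, was at 11.9 and 0.989 CPM with EPZ5676 and 14.7 and 1.53 CPM with MI-2-2. The part of the replicate number in their dependence on DMSO 1 was not tested. Among the furthest from DMSO 2 alone were Xist, Elavl2, Rnf17 and Bcl11a. Bcl11a, a lymphoid transcription factor, had no read in DMSO 1, 847 in DMSO 2, and 0 and 1 with MM-401, and Elavl2 was at 3.19, 277, 3.21 and 1.55 CPM in the same order. Rnf17 went the other way, at 56.2 CPM in DMSO 1, 0.144 CPM in DMSO 2, and 54.1 and 55.1 CPM with MM-401. DMSO 2 was the library that stood apart for these 4 genes, as it was for the sex-linked genes. Without DMSO 2 the log2 difference of Elavl2 went from -5.87 to -0.44.

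MM-401 was also set against the mean of EPZ5676, MI-2-2 and iBET. The DMSO libraries were not part of this contrast, but entered the gene filter, the scaling and the estimate of spread. In edgeR, 1956 genes were higher with MM-401 (15.1%) and 1517 lower (11.7%) at an adjusted p of 0.05, and 3164 and 2392 when the 8 inhibitor libraries were fitted without DMSO. With either MM-401 library left out, 218 to 269 genes were higher and 125 to 168 lower, the lone library being assumed to vary like the others. The genes that separated MM-401 from DMSO had a wide range among the other inhibitors. Mrc1, at 12.5 and 14.4 CPM with MM-401, was at 71.9 to 247 CPM with EPZ5676 or MI-2-2 and at 0.842 to 0.928 CPM with iBET. Ltf was at 3194 to 5093 CPM with EPZ5676 or MI-2-2 and at 5.47 to 8.44 CPM with iBET. Lyz2 was lower with MM-401 than with any of the 6 libraries, which ranged from 1022 to 5389 CPM (log2 difference -2.0, adjusted p = 0.00217). The levels with MM-401 thus lay between DMSO and the pair EPZ5676 and MI-2-2 for these genes. Of the 29 macrophage genes, 1 was called higher and 8 lower than the mean of the other inhibitors. Of the 27 late granule genes, none was higher and 9 were lower. The shares of all genes were 15.1% higher and 11.7% lower.

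Several genes, picked after their values were seen, were lower or higher with MM-401 than in every other library. Prkar2b was at 65.0 to 116 CPM in the 6 other inhibitor libraries (log2 difference -0.90, adjusted p = 0.00177) and at 83.3 and 88.0 CPM in DMSO, against 42.6 and 43.2 CPM with MM-401. Klf2 was at 37.9 to 76.8 CPM with the other inhibitors (log2 difference -2.13, adjusted p = 0.00404), and Itgb3 at 8.33 to 19.9 CPM (-2.06, adjusted p = 0.00417). Both were also below DMSO in both libraries. Phlda3 was at 4.46 to 8.66 CPM with the other inhibitors, below 14.7 and 26.1 CPM with MM-401 (log2 difference 1.66, adjusted p = 0.0169). Zmat3 was at 13.0 to 27.6 CPM (1.22, adjusted p = 0.00535). Both comparisons share the MM-401 libraries, and the choice of these genes fixed the direction of each.

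Among the genes furthest from the other inhibitors, most had DMSO on the same side as MM-401. Mpo was at 14.6 to 367 CPM with the other inhibitors against 1287 and 2050 CPM with MM-401 (log2 difference 4.98, adjusted p = 0.00389), and both DMSO libraries also exceeded all 6. Meis1 was at 0.650 to 1.79 CPM with EPZ5676 or MI-2-2 and at 51.0 and 56.7 CPM with iBET, around 34 and 43.2 CPM with MM-401. Ano4, a membrane scramblase-family gene, was at 26.2 and 43.9 CPM with MM-401, 0.582 to 2.52 CPM with the other inhibitors, and 9.38 and 18.1 CPM in DMSO. Bhlha15, a factor of secretory cells, was at 25.7 and 17.6 CPM with MM-401 and 0.776 to 2.30 CPM with the others, and Glra3 at 7.02 and 4.71 CPM against 0.0485 to 0.459 CPM. In the other direction, Abcc3, an organic anion transporter, was at 2.37 and 2.48 CPM with MM-401 and 5.05 to 160 CPM with the others. Egr3 was at 0.634 and 0.546 CPM against 2.03 to 20.3 CPM, and St3gal5 at 0.507 and 0.798 CPM against 1.68 to 28 CPM. F11r, a junction protein, was at 0.465 and 0.294 CPM with MM-401, 0.650 to 9.95 CPM with the others, and 2.02 and 0.719 CPM in DMSO, so MM-401 was below every other library. Smpd5 was at 0.254 and 0.378 CPM against 0.442 to 18.2 CPM, and its DMSO libraries, at 1.32 and 0.0959 CPM, lay on either side of MM-401. For Mpo, Ano4, Bhlha15, Glra3, Abcc3, Egr3 and St3gal5 both DMSO libraries lay on the same side of the 6 other libraries as MM-401.

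**Figure D4:**
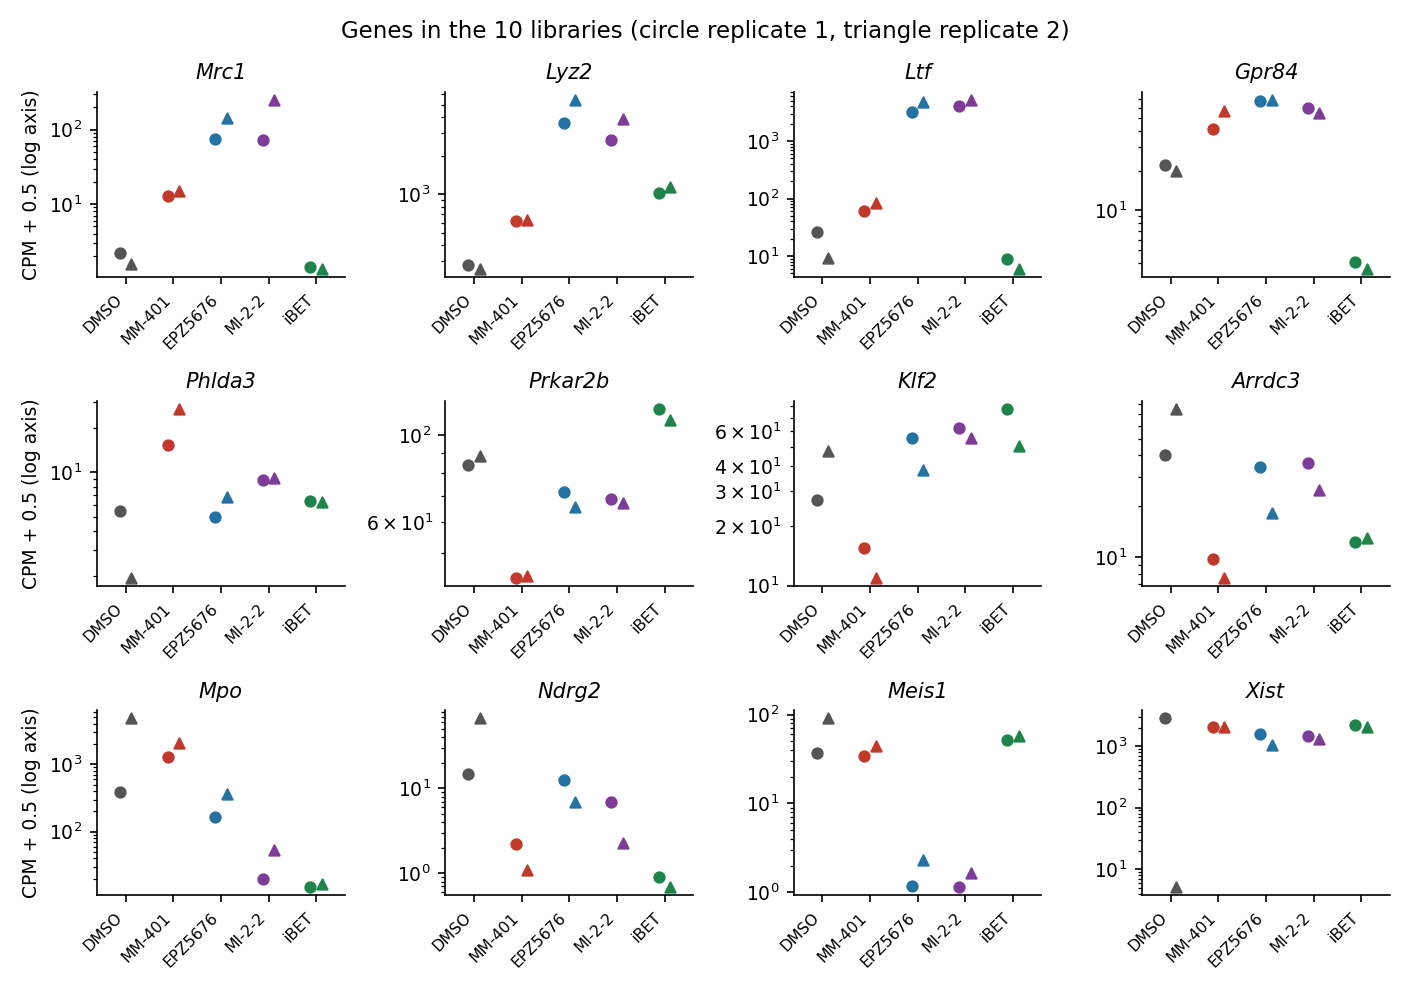
CPM + 0.5 (log axis, its range set per gene) of 12 genes in all 10 libraries, 1 colour per treatment, circles for replicate 1 and triangles for replicate 2. Mrc1, Lyz2 and Ltf lie above DMSO with MM-401 and higher still with EPZ5676 and MI-2-2, Prkar2b, Klf2 and Phlda3 stand apart with MM-401, and Mpo and Xist show DMSO 2 away from DMSO 1.

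Markers of other cell types were checked against the myeloid identity of the cells. Of 16 mast cell and basophil markers 7 were tested, of 11 eosinophil markers 4, of 17 dendritic cell markers 8, of 15 erythroid markers found 3, of 13 megakaryocyte markers 8, of 14 B cell markers 5, of 18 T and NK cell markers 3, and of 16 stromal and endothelial markers 6. The summed level of the tested B cell markers was 3.78 CPM in DMSO 1, 39.1 CPM in DMSO 2, and 6.59 and 4.33 CPM with MM-401, and that of the stromal markers 34.6, 295, 38.9 and 32.4 CPM. DMSO 2 alone was high for both lists. The separated members of these lists were Vwf, at 2.34 and 1.87 CPM against 5.33 and 4.45 CPM, and Col1a1, at 0.273 and 0.288 CPM against 0.719 and 0.756 CPM. Among ETS factors, 4 of 17 were above both DMSO libraries and none below (19.5% and 17.8% of all genes), with a median log2 difference of 0.13. Sterol synthesis genes had 1 of 25 above both and 4 below both (19.5% and 17.8% of all genes). Their median was -0.09, which was 0.0064 without DMSO 2.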

How the data were processed

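Whole-number read counts per gene for 10 libraries were deposited by the authors as 1 table. The submitters' processing notes name TopHat2, Subread, DESeq and build mm9, while versions and settings are not given in the sources read. Counts were analysed as deposited. Genes were kept by edgeR's filterByExpr, libraries were scaled by TMM, and glmQLFit and glmQLFTest of edgeR 4.0.16 (R 4.3.3, limma 3.58.1) were run with 1 coefficient per condition over all 10 libraries, p-values being adjusted by Benjamini-Hochberg and called at 0.05. Differences between single libraries used log2(CPM + 0.5). DESeq2 1.42.0 was an alternative, as were other scalings, filters, pseudocounts, fold thresholds, the 4 libraries alone, a replicate block and leaving out each library. The fit was tested on simulated data.

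The genes named are those of the study's short list for MM-401, the 10 with the widest gap to DMSO in each direction and at least 5 CPM, the 5 with the smallest p, the 5 furthest from each DMSO library alone, list members separated by 1.5-fold, the sex-linked genes, and the 5 furthest from the other inhibitors in each direction. List members that were not separated, and the genes under the closing observations, were named after their values were seen. One gene that this rule names is not reported here. The comparison and the 26 gene lists were chosen with earlier results of these data known. Joint targets were matched by symbol, 1347 of 1368. The libraries held 20394762 to 23717378 reads in the 4 compared, so that 1 read was worth 0.0422 to 0.0490 CPM before scaling.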

Additional observations from a re-analysis of the deposited data

How the results depend on the processing

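The number of genes called between MM-401 and DMSO, 0 in edgeR, was 286 with DESeq2 and ranged from 0 to 1368 when each library was left out, 1368 being without DMSO 1. Against the other inhibitors, 1956 higher became 3164 and 1517 lower became 2392 when the 8 inhibitor libraries were fitted alone, and with each library left out they ranged from 218 to 2915 and from 125 to 2778. Genes above both DMSO libraries (2531) numbered 3343 to 5650 and those below both (2308) 3074 to 5776 with 1 library left out, where by construction fewer libraries had to be passed. The 166 genes separated above numbered 88 with a mean of at least 5 CPM, 500 at a smaller gap, 52 at 2-fold and 237 to 1284 with a library left out. The 141 below numbered 89, 452, 28 and 194 to 1180 in the same order, and 243 with a pseudocount of 0.1 CPM. With at least 5 CPM, at 1.5-fold and at 3-fold, the genes past the fold against DMSO 1 alone (565) numbered 298, 1590 and 139, those against DMSO 2 alone (966) 615, 1792 and 499, those against both the same way (146) 95, 538 and 35, and those in opposite ways (87) 50, 368 and 7. With pseudocounts of 0.1 and 1 CPM the last 2 classes numbered 291 and 94, and 208 and 54. Members below DMSO were also counted against 1 DMSO library instead of both, which was chosen after seeing the data. For ATF4 (9) they numbered 19 of 25 against DMSO 1 and 13 against DMSO 2. For hypoxia and glycolysis (8) they numbered 27 and 9 of 31, and for the cell cycle (8) 17 and 19 of 30. Of all genes tested, 41.9% lay below DMSO 1 and 41.3% below DMSO 2.

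Of 732 recomputed log2 differences over 82 genes, 628 kept their direction and did not pass 0.05, 79 passed 0.05 and 25 changed sign. Ranges with a library left out were -2.43 to 2.53 for Flt3, -0.20 to 0.69 for Egr2, -0.61 to 0.39 for Hoxa7, -0.22 to 0.029 for Hoxa9, -1.22 to 0.067 for Meis1, -0.48 to 0.70 for Zfp385a, -0.037 to 0.061 for Kmt2a, -0.047 to 0.31 for Wdr5, -3.25 to 0.13 for Nrbp2, -4.70 to 0.13 for Col25a1, -0.48 to 8.78 for Xist, -0.060 to 8.52 for Rnf17, -11.89 to 2.31 for Bcl11a, -1.48 to 0.65 for 4933440M02Rik, -1.53 to 2.09 for Mpo and -2.06 to 1.67 for Smpd5. Zfp385a was also at -0.0013 with the DESeq2 test, -0.0093 with total-count scaling, -0.0013 with DESeq2 size factors and -0.023 with the 4 libraries alone, and Kmt2a at -0.013 with total-count scaling and -0.0094 with the 4 libraries alone. The cause was not tested.

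Same-numbered libraries deviated together, with correlations of 0.303 to 0.704 over the 10 pairs of conditions, but the labels do not say that a number marks a batch. With a replicate block, edgeR called 0 genes and 2176 had an unadjusted p below 0.05, and no named gene changed its call.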

Other observations

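Several receptors of myeloid cells outside the gene lists, picked after their values were seen, were also separated above DMSO. Clec4a2, a lectin receptor, was at 6.74 and 18.2 CPM in DMSO and 31.3 and 66.0 CPM with MM-401, and Clec5a at 30.3 and 49.0 CPM against 86.7 and 131 CPM. For both, DMSO 2 held more than DMSO 1, and MM-401 was above either. The complement receptor C5ar1 was at 6.23 and 3.07 CPM against 13.2 and 17.3 CPM, and C3ar1 at 0.779 and 0.767 CPM against 2.33 and 1.89 CPM. Trem2, a lipid-sensing receptor of macrophages, was at 0.974 and 0.911 CPM against 3.0 and 3.02 CPM. Tlr13, a sensor of bacterial RNA, was at 7.13 and 7.67 CPM against 15.5 and 17.3 CPM. None of these passed the edgeR test after adjustment.

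Below DMSO, a few genes had nearly the same value within each pair of libraries. Dars, an aminoacyl-tRNA synthetase, was at 454 CPM in each DMSO library and 292 and 291 CPM with MM-401. Rpl22l1, a relative of a ribosomal protein, was at 44.7 and 47.9 CPM against 23.9 and 24.6 CPM, and the ribosomal protein gene Rpl39 at 58.1 and 66.2 CPM against 36.9 and 35.8 CPM. Ribosomal protein genes have many processed copies, so the counts of Rpl39 and Rpl22l1 are uncertain. Bmpr2, a receptor for bone morphogenetic proteins, was at 18.3 and 16.8 CPM against 9.0 and 7.90 CPM, and at 22.2 to 31.9 CPM with the other inhibitors.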
